A study of Mus musculus with 9 samples.

Results

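Ion channel genes were described in bulk RNA sequencing of tumour tissue taken from mouse brains after resection of CT2A tumours. The set held every gene whose symbol named a potassium channel (Kcn followed by a letter), a voltage-gated sodium channel (Scn with a number and a or b) or a voltage-gated calcium channel (Cacna, Cacnb or Cacng). It came to 134 of 18639 gene entries: 14 sodium channel genes, 26 calcium channel genes and 94 potassium channel symbols. CT2A is a mouse glioma line, and all libraries came from tissue at day 5 after resection in mice whose CT2A tumours are called wildtype in the series title. The ThTC group received IFNβ- and GM-CSF-secreting cells (IFNβ is interferon-beta), which the title says are CT2A cells. The GFP-TC group received GFP-TC control cells, and the sECM only group received sECM without cells. Each group held 3 libraries, named here by group and number. The labels give no strain, age or sex. They also do not state whether each library was a separate mouse, so the spread behind every p-value is that between libraries, which may be technical.

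Voltage-gated channels open when the membrane potential changes. Sodium channels start the action potential, calcium channels turn it into calcium entry and transmitter release, and potassium channels end it and set the resting potential. Pore-forming subunits make the channel itself, while auxiliary subunits set how many channels reach the membrane and how they gate. Neurons hold most of this repertoire. Astrocytes use inward rectifiers to clear potassium, and leukocytes and dividing tumour cells use a few potassium channels for volume, migration and calcium entry.

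The start-site windows of 4 channel genes are shown because they stand for the patterns of expression described here. Kcnh6 and Kcnn4 were the most abundant potassium channel genes and did not follow the neuron markers, Kcnc1 belongs to neurons that fire fast, and Kcnj10 belongs to astrocytes. The windows run from 250 bases before to 50 after a RefSeq start on GRCm38.p6, all on the plus strand, at chr11:106007898-106008197 for Kcnh6, chr7:24370013-24370312 for Kcnn4, chr7:46396218-46396517 for Kcnc1 and chr1:172340960-172341259 for Kcnj10. Capitals mark the GC box GGGCGG or its other strand CCGCCC, and the letters TTCAGCACC, one side of the RE1 element that the repressor REST binds.
Kcnh6: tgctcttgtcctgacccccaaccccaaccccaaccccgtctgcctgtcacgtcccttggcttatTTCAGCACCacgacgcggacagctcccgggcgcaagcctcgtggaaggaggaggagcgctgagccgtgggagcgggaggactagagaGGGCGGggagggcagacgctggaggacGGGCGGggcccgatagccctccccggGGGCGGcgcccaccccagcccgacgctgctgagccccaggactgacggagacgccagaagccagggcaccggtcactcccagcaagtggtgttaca
Kcnn4: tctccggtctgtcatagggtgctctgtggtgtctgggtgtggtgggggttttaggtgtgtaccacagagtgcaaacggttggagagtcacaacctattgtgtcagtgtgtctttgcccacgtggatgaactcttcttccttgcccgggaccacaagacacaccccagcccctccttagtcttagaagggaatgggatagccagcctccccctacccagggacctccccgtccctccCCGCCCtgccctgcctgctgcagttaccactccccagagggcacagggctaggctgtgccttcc
Kcnc1: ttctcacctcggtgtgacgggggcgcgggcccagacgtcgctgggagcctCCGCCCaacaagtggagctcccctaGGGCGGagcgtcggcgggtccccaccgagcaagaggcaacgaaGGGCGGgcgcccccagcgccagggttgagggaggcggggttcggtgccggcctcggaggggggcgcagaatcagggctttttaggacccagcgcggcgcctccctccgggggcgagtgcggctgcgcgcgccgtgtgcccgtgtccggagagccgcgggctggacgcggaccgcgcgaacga
Kcnj10: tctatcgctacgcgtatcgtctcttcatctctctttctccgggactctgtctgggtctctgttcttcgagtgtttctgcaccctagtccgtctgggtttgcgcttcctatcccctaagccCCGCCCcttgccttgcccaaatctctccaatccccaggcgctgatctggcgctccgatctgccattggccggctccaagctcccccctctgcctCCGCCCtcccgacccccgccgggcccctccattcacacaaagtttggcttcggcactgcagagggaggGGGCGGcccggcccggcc
The Kcnh6 window held 24 CpG, 3 GC boxes and 1 copy of TTCAGCACC. The Kcnc1 window held 41 CpG and 3 GC boxes, the Kcnj10 window 21 CpG and 3 GC boxes, and the Kcnn4 window 6 CpG and 1 GC box. RefSeq windows matched 99 of the 134 genes, with 135 windows in all. A GC box stood in 45.2% of these windows, against 35.7% of all 32851 windows of the same length. TTCAGCACC, searched on both strands, stood in 1 of the 135 windows and in 0.371% of all windows. These are matches of letters, and no binding was measured.

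Expression was given in TPM, a transcript abundance that is corrected for gene length and adds up to the same total in every library. It keeps no read depth, and the labels give only a yield of 4.47 Gb for each sample. Tests used log2(TPM + 1), a scale that understates the change of genes with low values. Markers of brain cells were found in every library and differed widely. The summed level of 14 neuron markers ran between 300.1 and 3146 TPM in ThTC libraries, 176 and 2659 TPM in GFP-TC libraries, and 520 and 808 TPM in sECM only libraries. The libraries ThTC 3 and GFP-TC 3 stood apart at the top, and GFP-TC 1 and ThTC 1 at the bottom, so the extremes lay in the same 2 groups. Oligodendrocyte markers moved the same way, with sums between 162 TPM in ThTC 1 and 2447 TPM in ThTC 3. Cycling-cell markers, which dividing cells such as tumour cells express, stayed between 1164 and 1510 TPM over the 9 libraries. No marker of these 3 lists was at 0 in all libraries. In bulk tissue, fewer cells of a type and less RNA per cell cannot be told apart.

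A neuron index was taken as the mean of log2(TPM + 1) over the 14 neuron markers, each centred over the libraries, with no channel gene in it. It was -1.29, -0.20 and 2.08 in ThTC 1 to 3, -1.80, 0.14 and 1.78 in GFP-TC 1 to 3, and 0.12, -0.45 and -0.37 in sECM only 1 to 3. The slope of each gene on this index was estimated with limma in a model that also held the 3 groups, and p-values were adjusted by Benjamini-Hochberg over all 13829 tested genes. A slope of 1 means that a gene changed as much as the average neuron marker.

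Most tested channel genes followed the neuron markers, and the few without a call included both abundant genes and genes of low level. Of the 134 genes, 88 passed the filter of 1 TPM in at least 3 libraries, and 79 of these had a positive slope at an adjusted p under 0.05 while 0 had a negative one. Over all tested genes, 25.5% had a positive call and 4.14% a negative one. The median slope was 0.57 over the 88 channel genes and 0.041 over all tested genes. A gene that reached 1 TPM through the libraries rich in neuron markers was more likely to be tested, so the count without a filter also matters: 97 of 132 channel genes were called positive there, against 22.3% of 18400 genes. With a mean of 5 TPM or more as the filter, it was 25 of 30 channel genes against 20.3% of genes. The calls leaned on ThTC 3 and GFP-TC 3. Without both libraries, 37 of 77 channel genes were called positive, against 9.3% of 13522 genes. With the median-of-ratios scaling, 77 of 88 channel genes were called positive, against 20.8% of all tested genes. Another 2 were called negative, against 2243 of all 13829 tested genes. The share of positive among all calls was 56.2%, against 86.0% on TPM as deposited.

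**Figure D1:**
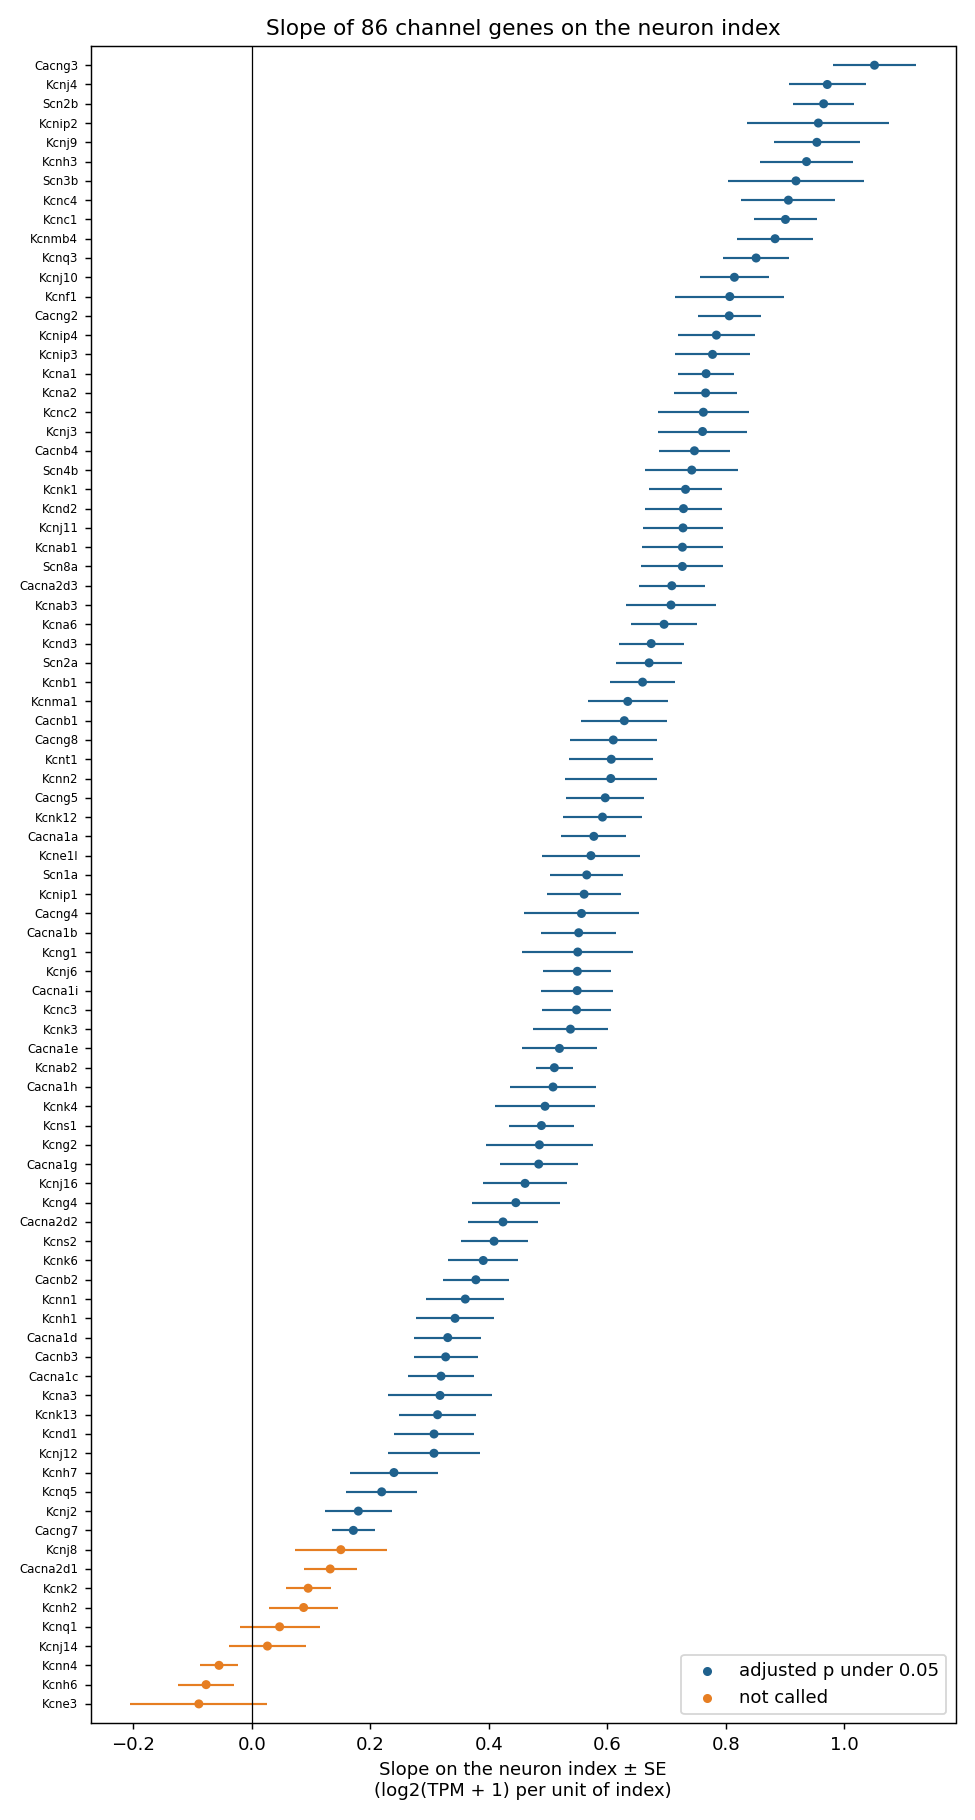
Slope of 86 of the 88 tested channel genes on the neuron index, in log2(TPM + 1) per unit of index, with points for the estimates and bars for their standard errors. The 77 called genes drawn lie between 0.17 and 1.05, and the 9 others between -0.089 and 0.15.

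The library order was shared by the called genes. Of the 79, 60 were highest in ThTC 3 and 19 in GFP-TC 3, and 77 had these as their top 2 libraries (97.5%). Among all tested genes, 23.9% had the same top 2 libraries. The lowest value lay in GFP-TC 1 for 48 and in ThTC 1 for 25. Since ThTC 3 and GFP-TC 3 had the highest index and the calls were made on that index, this order is a description. The highest library exceeded the lowest by a median of 14.2 times for the 79 called genes, with a range of 2.0 to 330 times. For the 9 genes not called, the median was 2.16 times and the range 1.41 to 5.45 times.

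**Figure D2:**
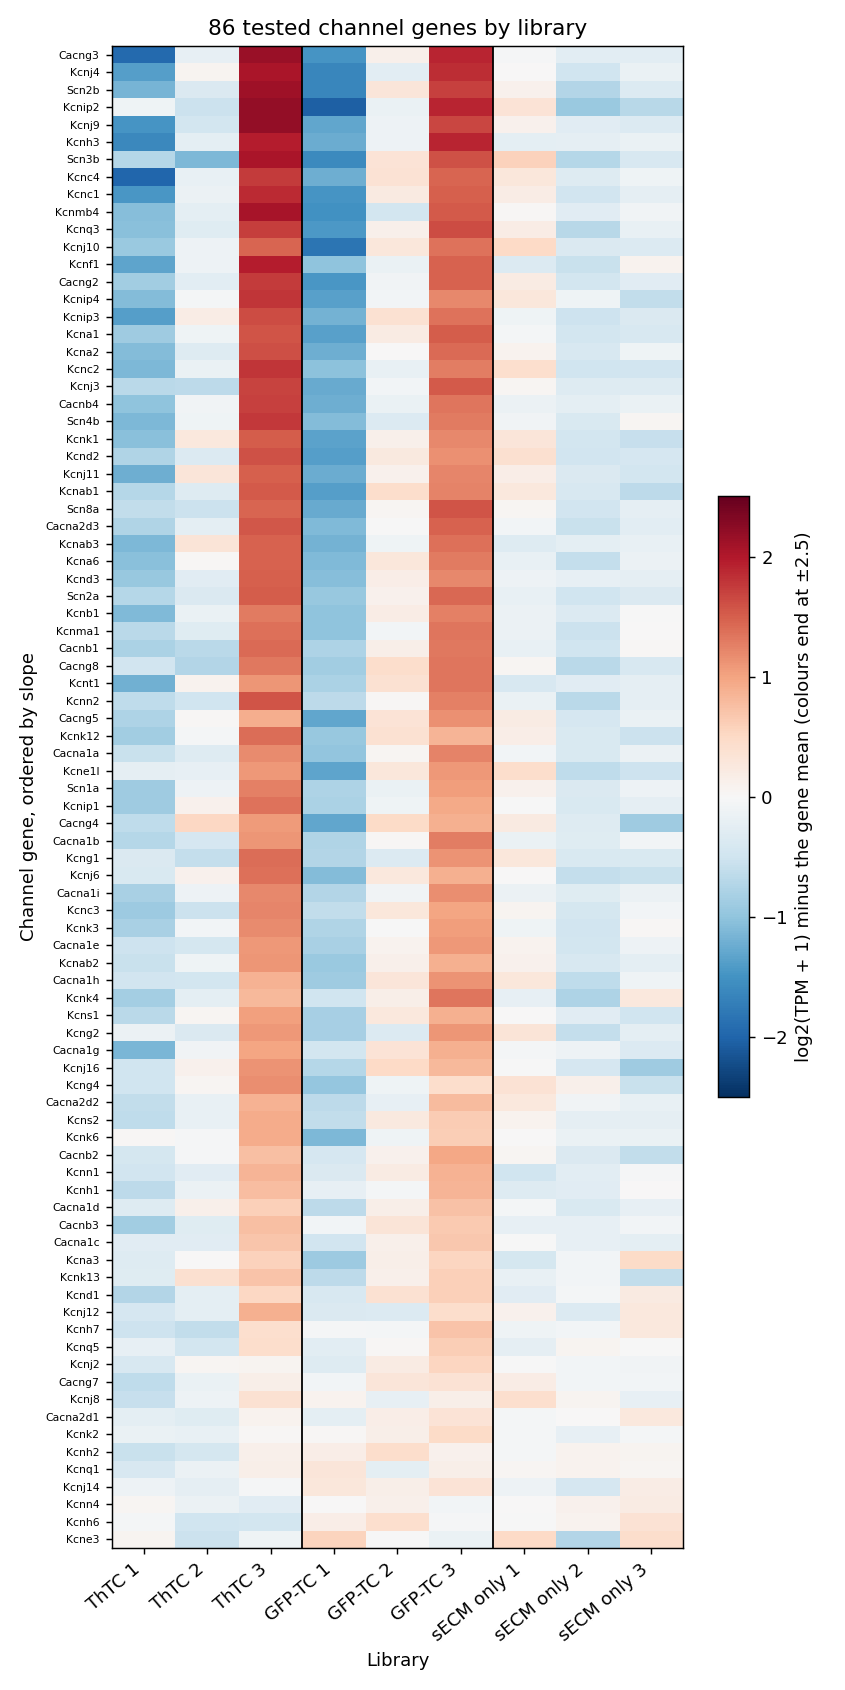
Log2(TPM + 1) of 86 of the 88 tested channel genes in the 9 libraries, minus each gene's mean, ordered by slope on the neuron index from the top. Columns ThTC 3 and GFP-TC 3 are high and ThTC 1 and GFP-TC 1 low for most genes, and the contrast fades in the lowest rows.

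All 3 tested sodium channel pore genes, of 10 in the files, rose with the neuron index. Scn2a, a main sodium channel of excitatory neurons, had 1.47, 2.16 and 10.6 TPM in ThTC libraries, 1.11, 3.40 and 10 TPM in GFP-TC libraries, and 2.56, 1.86 and 2.18 TPM in sECM only libraries. Its slope was 0.67 ± 0.056 (SE, limma adjusted p = 9.5e-06). Scn8a, the channel of the axon initial segment and nodes, averaged 3.42 TPM over the 9 libraries, and Scn1a, found in inhibitory neurons, 1.44 TPM. The other 7 stayed below the filter. They included Scn4a of skeletal muscle, at no more than 0.11 TPM, and Scn10a of sensory neurons, listed at 0 in all 9 libraries.

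The 4 sodium channel beta subunits, which tune gating and adhere to neighbouring cells, were all tested and all rose. Scn2b, which links to the pore by a disulfide bond, had 1.82, 3.92 and 26.2 TPM in ThTC libraries, 1.03, 6.73 and 19.5 TPM in GFP-TC libraries, and 5.75, 2.76 and 3.94 TPM in sECM only libraries. The number 3 libraries of both cell-treated groups stood above all others, and the groups overlapped. The slope of Scn2b was 0.97 ± 0.052 (SE, limma adjusted p = 6.3e-07), and 0.96 ± 0.13 (adjusted p = 0.0039) without ThTC 3 and GFP-TC 3. Scn3b and Scn4b had slopes of 0.92 and 0.74.

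Of the 10 calcium channel pore genes, 8 were tested and all 8 rose with the neuron index, with slopes of 0.32 to 0.58. Cacna1a, the P/Q-type channel of nerve terminals, was the most abundant. It had 2.05, 2.57 and 9.12 TPM in ThTC libraries, 1.24, 3.63 and 9.50 TPM in GFP-TC libraries, and 3.25, 2.42 and 3.01 TPM in sECM only libraries. Its slope was 0.58 ± 0.055 (SE, limma adjusted p = 2.3e-05), and 0.46 with an adjusted p of 0.064 without ThTC 3 and GFP-TC 3. Cacna1c, an L-type channel of heart, vessels and neurons, had the lowest slope of the 8, at 0.32 ± 0.055 (SE). Cacna1s, the skeletal muscle channel, and Cacna1f, the retinal one, stayed below the filter.

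The calcium channel beta subunits, which carry the pore to the membrane, were called in 4 of 4 genes, with slopes of 0.33 to 0.75. Cacnb3 averaged 53.3 TPM and had 27.1, 40.9 and 85.4 TPM in ThTC libraries, 48.0, 63.5 and 79.6 TPM in GFP-TC libraries, and 43.7, 43.5 and 48.1 TPM in sECM only libraries. Its slope was 0.33 ± 0.054 (SE, limma adjusted p = 0.0011), and it was no longer called with the replicate number as a block or without ThTC 3 and GFP-TC 3 (adjusted p = 0.14 for the second). Cacnb1 had a slope of 0.63. Its gene span shares 1032 bases with that of Rpl19, a ribosomal protein gene at 1715 TPM, and since the sources used here do not give whether counting used strand, reads of the 2 cannot be told apart.

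Among the alpha2-delta subunits, Cacna2d2 and Cacna2d3 rose and Cacna2d1 did not pass the test. Cacna2d1 had 13.1, 12.4 and 16.7 TPM in ThTC libraries, 13.02, 17.7 and 20.2 TPM in GFP-TC libraries, and 15.1, 15.7 and 19.1 TPM in sECM only libraries. Its slope of 0.13 ± 0.045 (SE) had a limma adjusted p of 0.0502, just over the threshold. It was called with a pseudocount of 0.1, without sECM only 1 and without sECM only 3, at slopes of 0.13, 0.14 and 0.14.

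The Cacng genes encode gamma subunits and TARPs, which are AMPA receptor partners. All 6 tested genes rose, with slopes of 0.17 to 1.05, the widest span of the calcium channel classes. Cacng3, a TARP of cortical neurons, had the steepest slope of all 88 tested channel genes, at 1.05 ± 0.070 (SE, limma adjusted p = 2.2e-06). It had 0.56, 4.19 and 25.7 TPM in ThTC libraries, 1.14, 5.52 and 21.4 TPM in GFP-TC libraries, and 4.82, 3.96 and 3.97 TPM in sECM only libraries. Cacng2, the cerebellar TARP stargazin, had a slope of 0.81 ± 0.053 (SE). Cacng7, at chr7:3332027-3368221, was far more abundant and far flatter. It had 54.4, 75.5 and 93.7 TPM in ThTC libraries, 80.6, 104 and 109 TPM in GFP-TC libraries, and 96.7, 80.7 and 80.6 TPM in sECM only libraries. Its slope of 0.17 ± 0.036 (SE, limma adjusted p = 0.0047) was the lowest among called genes. It was 0.16 and no longer called without ThTC 3, and the call was also lost with the replicate block, with no group terms, with both indices in the fit, and without both ThTC 3 and GFP-TC 3. Cacng8, close by at chr7:3394042-3416266, averaged 15.96 TPM with a slope of 0.61, and Cacng6, also on chromosome 7, averaged 0.148 TPM.

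Of 40 voltage-gated potassium pore genes, 27 were tested and 24 rose. Kcnq3, a subunit of the M-current channel that limits repetitive firing, had 0.90, 2.17 and 11.99 TPM in ThTC libraries, 0.46, 3.29 and 11.2 TPM in GFP-TC libraries, and 3.44, 1.42 and 2.44 TPM in sECM only libraries. Its slope was 0.85 ± 0.056 (SE, limma adjusted p = 2.1e-06), and 0.81 ± 0.14 (adjusted p = 0.010) without ThTC 3 and GFP-TC 3. Kcnq5, a related subunit, averaged 6.74 TPM with a slope of 0.22, and Kcnq1, the channel of heart and epithelia, was not called.

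Kcnc1 and Kcna1 also rose with the neuron index. Kcnc1, the fast Kv3.1 channel whose start-site window is printed above, had 0.80, 3.43 and 17.0 TPM in ThTC libraries, 0.76, 4.74 and 12.8 TPM in GFP-TC libraries, and 4.58, 2.52 and 3.23 TPM in sECM only libraries. Its slope was 0.90 ± 0.053 (SE, limma adjusted p = 1.1e-06). Kcna1, the Kv1.1 channel of axons, had 1.04, 2.48 and 10.2 TPM in ThTC libraries, 0.46, 3.31 and 9.66 TPM in GFP-TC libraries, and 2.63, 1.72 and 1.83 TPM in sECM only libraries, with a slope of 0.77 ± 0.047 (SE). Both genes kept a call without ThTC 3 and GFP-TC 3, with adjusted p of 0.0038 and 0.0060.

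Auxiliary subunits of potassium channels were called in 8 of 9 tested genes, of 12 in the files. Kcnab2, a beta subunit of Kv1 channels, was the most abundant, with 30.6, 42.7 and 100.2 TPM in ThTC libraries, 23.6, 49.9 and 85.4 TPM in GFP-TC libraries, and 49.7, 34.5 and 38.8 TPM in sECM only libraries. Its slope was 0.51 ± 0.031 (SE, limma adjusted p = 1.2e-06). Kcnip2, a calcium-binding partner of Kv4 channels, had a slope of 0.96 ± 0.12 (SE). Kcne1l averaged 25.5 TPM with a slope of 0.57 ± 0.082 (SE). Kcne3, a partner of Kcnq1 in epithelia, was not called, with a slope of -0.089 ± 0.12 (SE) and 0.49 to 2.67 TPM over the libraries.

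Inward rectifiers let potassium in more easily than out. Of 15 genes, 11 were tested and 9 rose. Kcnj10, the Kir4.1 channel with which astrocytes and oligodendrocytes clear potassium, was the most abundant. It had 14.3, 25.7 and 79.04 TPM in ThTC libraries, 7.31, 34.7 and 74.0 TPM in GFP-TC libraries, and 40.2, 21.8 and 22.2 TPM in sECM only libraries. Its slope was 0.81 ± 0.058 (SE, limma adjusted p = 3.5e-06), and 1.04 ± 0.11 (adjusted p = 0.0016) without ThTC 3 and GFP-TC 3. Kcnj4 and Kcnj9, a strong rectifier and a G-protein-gated one of forebrain neurons, were steeper, at 0.97 and 0.95. Kcnj8 and Kcnj14 were not called, with slopes of 0.15 ± 0.077 and 0.026 ± 0.065 (SE).

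Tandem-pore-domain channels carry the background potassium current. Of 14 genes, 7 were tested and 6 rose, with Kcnk1 at 10.8 TPM on average and a slope of 0.73 ± 0.061 (SE, limma adjusted p = 9.6e-06). Calcium- and sodium-activated potassium channels were called in 5 of 6 tested genes, of 12 in the files. Kcnmb4, the neuronal partner of the BK channel, had a slope of 0.88, and Kcnma1, the BK pore, 0.63.

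**Figure D3:**
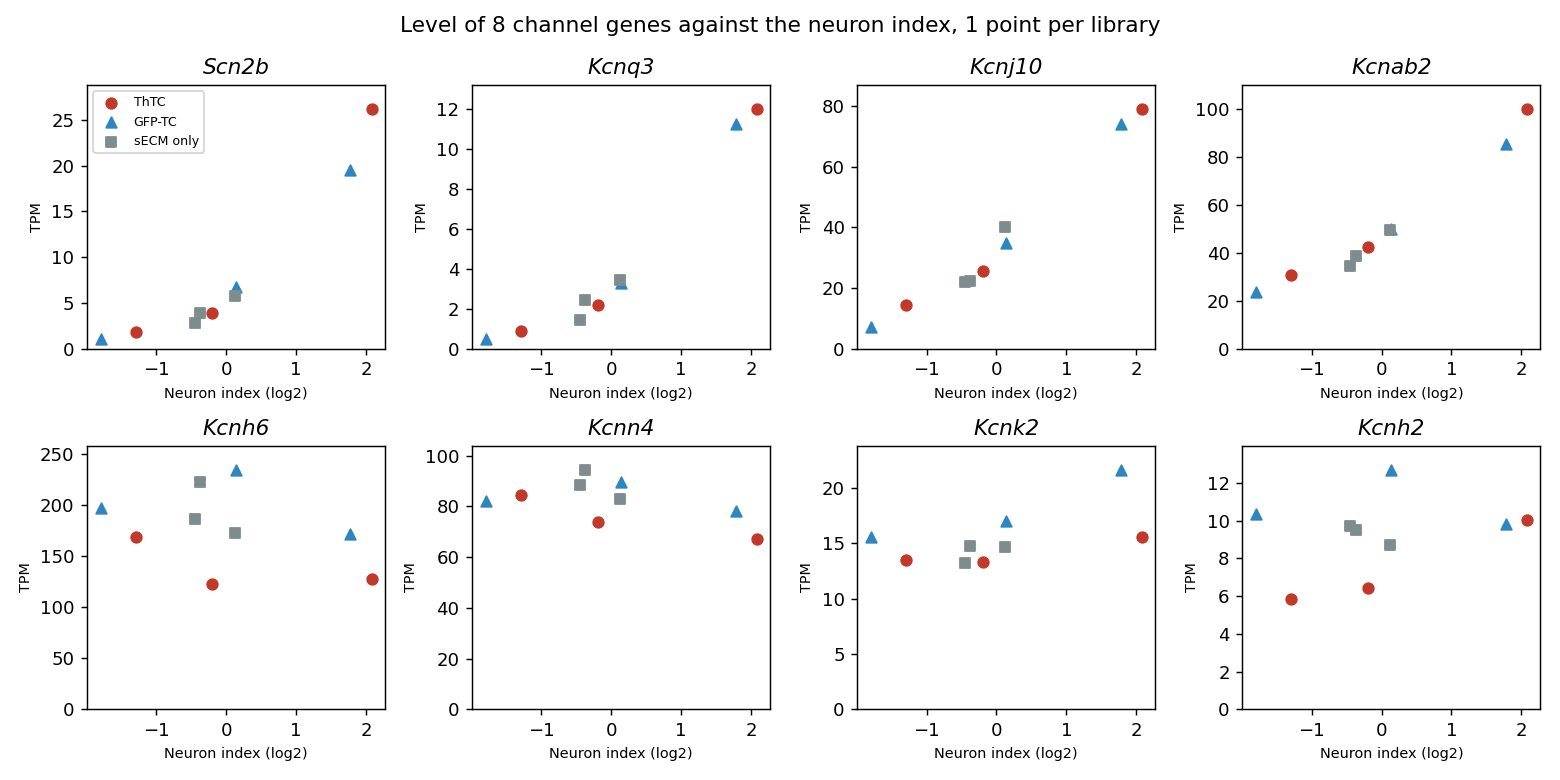
TPM of 8 channel genes (vertical axes from 0) against the neuron index (log2) in the 9 libraries, with 1 point per library coloured by group. Scn2b, Kcnq3, Kcnj10 and Kcnab2 in the upper row rise with the index, while Kcnh6, Kcnn4, Kcnk2 and Kcnh2 in the lower row have slopes of -0.077 to 0.095 that did not pass the test.

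The 9 genes without a call were Kcnh6, Kcnn4, Cacna2d1, Kcnk2, Kcnh2, Kcnq1, Kcne3, Kcnj8 and Kcnj14. Kcnh6, at chr11:106008044-106035595, encodes a channel of the ERG family and had the highest mean level of all 134 genes, 178 TPM. It had 168, 122 and 127 TPM in ThTC libraries, 197, 235 and 172 TPM in GFP-TC libraries, and 172, 186 and 223 TPM in sECM only libraries. Its slope was -0.077 ± 0.048 (SE, limma adjusted p = 0.27). Its span overlaps the non-coding gene Gm35971 in RefSeq, for which no value was used here, and reads of the 2 may not be told apart.

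Kcnn4, at chr7:24369826-24385212, encodes the calcium-activated KCa3.1 channel of leukocytes and several tumours. It was the most even of the tested channel genes, with 84.3, 73.8 and 67.0 TPM in ThTC libraries, 82.1, 89.6 and 78.3 TPM in GFP-TC libraries, and 82.9, 88.6 and 94.5 TPM in sECM only libraries. Its highest library exceeded its lowest by 1.41 times, while the neuron marker sum differed by 17.9 times. Its slope was -0.055 ± 0.032 (SE, limma adjusted p = 0.23). With median-of-ratios scaling, Kcnh6 and Kcnn4 were the 2 channel genes called negative, with slopes of -0.15 and -0.12 (limma adjusted p = 0.016 and 0.0064). Negative calls were common under that scaling, at 2243 of all 13829 tested genes, against 572 on TPM as deposited.

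Kcnk2, the mechanosensitive TREK-1 channel, had 13.5, 13.3 and 15.5 TPM in ThTC libraries, 15.5, 17.0 and 21.6 TPM in GFP-TC libraries, and 14.7, 13.2 and 14.7 TPM in sECM only libraries. Its slope was 0.095 ± 0.038 (SE, limma adjusted p = 0.086). Kcnh2, the ERG channel of heart that is also found in tumours, had 5.87, 6.44 and 10.01 TPM in ThTC libraries, 10.3, 12.7 and 9.81 TPM in GFP-TC libraries, and 8.71, 9.74 and 9.52 TPM in sECM only libraries. Its slope was 0.088 ± 0.058 (SE, limma adjusted p = 0.30), and -0.011 without ThTC 3. Kcnh2 overlaps the non-coding gene Gm15589. In all, 48 of the 88 tested channel genes overlap another RefSeq gene, with Kcnk2, Cacna2d1, Kcne3 and Kcnq1 among them. The other 4 genes averaged between 1.14 and 1.68 TPM.

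The 9 genes without a call made up an uneven share of the summed channel level. They gave 289, 233 and 243 TPM in ThTC libraries, 326, 377 and 308 TPM in GFP-TC libraries, and 301, 318 and 367 TPM in sECM only libraries. The 79 called genes gave 271, 460 and 1387 TPM in ThTC libraries, 264, 590 and 1217 TPM in GFP-TC libraries, and 562, 393 and 426 TPM in sECM only libraries. The share of the 9 genes was lowest in ThTC 3, at 14.6%, and highest in GFP-TC 1, at 54.5%. Since the slopes chose these sets, the shares are a description.

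**Figure D4:**
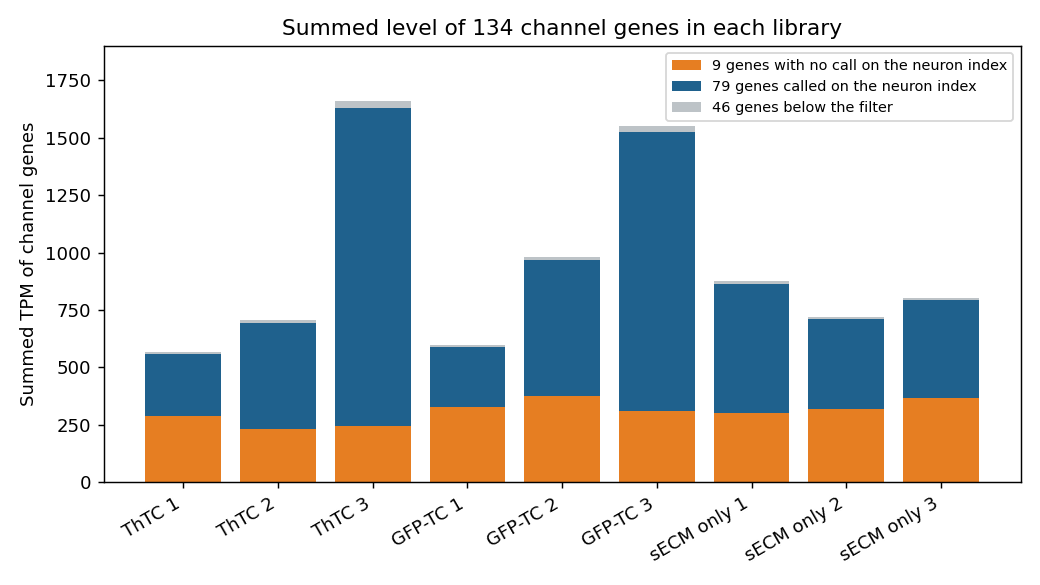
Summed TPM of the 134 channel genes in each library, split into the 9 genes without a call on the neuron index, the 79 called genes and the 46 below the filter. The lowest segment stays between 233 and 377 TPM, while the segment of called genes runs between 264 and 1387 TPM.

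Channels were also grouped by the cell type they are known from. These lists were chosen after the values of their genes were seen, so the counts are descriptions. Beside them, 79 of all 88 tested channel genes and 25.5% of all tested genes were called positive on the neuron index. All 33 tested genes of 36 neuronal channels were called positive, with slopes of 0.24 to 1.05. The 3 glial channels Kcnj10, Kcnk1 and Kcnj16 were also called, at 0.46 to 0.81. Of 7 channels known from immune cells, 5 were called on the neuron index, with a median slope of 0.31 over the 7. Besides Kcnab2, these were Kcna3 of T cells (0.32), Kcnk6 of macrophages (0.39), Kcnk13 of microglia (0.31) and Kcnj2 (0.18). Of 4 channels described in glioma or cycling cells, Kcnma1 and Kcnh1 were called, at 0.63 and 0.34, and Kcnn4 and Kcnh2 were not. Leukocyte markers themselves moved with the neuron index: 11 of 12 had a positive call, with a median slope of 0.27 and none at 0 in all libraries. Kcna3 had 1.87, 2.64 and 4.35 TPM in ThTC libraries, 0.92, 3 and 4.25 TPM in GFP-TC libraries, and 1.65, 2.43 and 4.01 TPM in sECM only libraries. The summed level of 8 T cell markers ran between 87.0 and 99.9 TPM in ThTC libraries, 7.89 and 79.5 TPM in GFP-TC libraries, and 23.1 and 84.7 TPM in sECM only libraries, and its part in the Kcna3 values was not tested.

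A leukocyte index, made the same way from 12 markers, was 0.10, 0.58 and 0.64 in ThTC libraries, -1.06, -0.097 and 0.30 in GFP-TC libraries, and 0.023, -0.39 and -0.10 in sECM only libraries. The summed level of these markers ran between 3264 and 5117 TPM in ThTC libraries, 1437 and 3385 TPM in GFP-TC libraries, and 2294 and 3081 TPM in sECM only libraries. With this index in the model in place of the neuron index, 59 of 88 channel genes were called with a positive slope, against 17% of all tested genes. Among those with the smallest p were Cacng5, Kcnj10, Kcne1l and Kcnk1. These are neuronal or glial genes by their known roles, except Kcne1l, for which no role is given here. The count was 0 without GFP-TC 1 and 0 without GFP-TC 3, with 65 of 88 and 48 of 82 at an unadjusted p under 0.05, against 21.1% and 24.5% of all genes tested there. It came to 12 of 88 without ThTC 1, against 6.98% of all tested genes, to 31 of 85 without sECM only 1, against 10.9%, and to 36 of 88 without sECM only 2, against 10.8%. With both indices in the same limma fit, 60 channel genes were called with a positive neuron slope, against 11.2% of all tested genes. On the leukocyte index, 0 were called there, against 0.108% of all tested genes. At an unadjusted p under 0.05, 3 of the 88 had a leukocyte slope there, against 7.43% of all tested genes. Of the 7 immune-cell channels, 3 were called on the leukocyte index alone, against 17% of all tested genes. With both indices 0 were called on it, against 0.108% of all tested genes, with adjusted p of 0.90 to 0.98. That fit called so few genes on the leukocyte index that a count of 0 says little about these channels. On the neuron index, 4 of the 5 called immune-cell channels lost the call in that fit, with adjusted p of 0.70 for Kcna3, 0.15 for Kcnk6, 0.37 for Kcnk13 and 0.90 for Kcnj2, and Kcnab2 was still called. With both indices, these 4 genes were called on neither.

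The channels of the choroid plexus, Kcnj13 and Kcne2, stayed below the filter, so their slope was not tested there. Kcnj13 had 0.10, 0.39 and 0.76 TPM in ThTC libraries, 1.66, 0.040 and 0.35 TPM in GFP-TC libraries, and 0.28, 0.10 and 0.080 TPM in sECM only libraries. Kcne2 had 0.060, 0.060 and 0.74 TPM in ThTC libraries, 1.66, 0.070 and 0.43 TPM in GFP-TC libraries, and 0.26, 0.13 and 0.050 TPM in sECM only libraries. Both were highest in GFP-TC 1, the library lowest in neuron markers. Ttr, the transthyretin gene of choroid plexus, had 0.97, 1.97 and 111 TPM in ThTC libraries, 384, 1.42 and 47.5 TPM in GFP-TC libraries, and 62.6, 0.18 and 0.90 TPM in sECM only libraries. Outside GFP-TC 1, both channels and Ttr were highest in ThTC 3. Of the 7 choroid plexus markers, Aqp1 had 217 to 380 TPM in every library, and the other 6 summed to 3.24, 6.48 and 118 TPM in ThTC libraries, 397, 4.04 and 52.7 TPM in GFP-TC libraries, and 66.7, 2.28 and 3.44 TPM in sECM only libraries. Kcnj13 lies within the span of Gigyf2, at 21.0 TPM.

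Among mural cell channels, Kcnj8 was the only one of 4 to pass the filter. It encodes the Kir6.1 pore of the ATP-sensitive channel in pericytes, and averaged 1.60 TPM. Its partner Abcc9, the sulfonylurea receptor of that channel, was not called either, with a slope of 0.045 ± 0.067 (SE). Kcnj11, the pore of the neuronal form, rose with a slope of 0.73. The 4 channels listed for muscle, Cacna1s and Cacng1 among them, all stayed below the filter.

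Partner genes of these channels were listed apart from the 134. Of 37, 29 were tested and 25 were called with a positive slope, against 25.5% of all tested genes. The median slope over the 29 was 0.46. These genes were chosen after their values were seen, so the count is a description. Hcn2, a pacemaker channel, had 6.59, 20.8 and 77.6 TPM in ThTC libraries, 5.20, 27.7 and 64.9 TPM in GFP-TC libraries, and 30.4, 16.2 and 16.1 TPM in sECM only libraries, with a slope of 0.97 ± 0.058 (SE). Sptbn4, the spectrin that holds sodium channels at the axon initial segment, and Dpp6, a Kv4 partner, had slopes of 0.81 and 0.90. The 4 without a call were Abcc9, Gem, which inhibits calcium channels, Orai1, the pore of store-operated calcium entry, and Rest. Rest, the repressor that binds RE1, had 12.9, 12.04 and 9.81 TPM in ThTC libraries, 14.5, 18.9 and 13.6 TPM in GFP-TC libraries, and 12.3, 10.9 and 16.2 TPM in sECM only libraries. Its slope was -0.062 ± 0.059 (SE, limma adjusted p = 0.48).

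Between treatments, no channel gene passed the test. The question asked of these comparisons was what the secreting cells did to the tumour tissue beyond control cells or sECM. With limma and no pairing of libraries, 0 of 88 channel genes and 0% of all 13829 genes were called in each of the 3 comparisons. At an unadjusted p under 0.05, ThTC differed from GFP-TC in 2 channel genes (14.9% of all tested genes) and from sECM only in 2 (6.9% of all tested genes). GFP-TC differed from sECM only in 0 (0.933% of all tested genes). The median log2 difference over the 88 genes was 0.0044 for ThTC minus GFP-TC, 0.29 for ThTC minus sECM only and 0.28 for GFP-TC minus sECM only. Over all tested genes it was -0.10, -0.032 and 0.077. The 3 comparisons share libraries in pairs. The neuron index spanned -1.29 to 2.08 in ThTC libraries, -1.80 to 1.78 in GFP-TC libraries and -0.45 to 0.12 in sECM only libraries, and with it as a covariate the medians over the 88 genes were -0.11 for ThTC minus GFP-TC, 0.020 for ThTC minus sECM only and 0.12 for GFP-TC minus sECM only. With 1 library left out, 82 to 88 channel genes were tested, and each of the 3 medians changed direction with at least 1 library. For ThTC minus GFP-TC, the median was 0.42, 0.14 and -0.57 without ThTC 1, 2 and 3, -0.48, -0.021 and 0.55 without GFP-TC 1, 2 and 3, and -0.0024 without sECM only 1. For ThTC minus sECM only, it was 0.72 without ThTC 1 and -0.27 without ThTC 3. For GFP-TC minus sECM only, it was 0.85 without GFP-TC 1 and -0.22 without GFP-TC 3.

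The 4 channel genes with the smallest p for ThTC against either other group had no call on the neuron index. Genes that follow this index carry its wide spread within groups into their SE, so a small p was harder to reach for them. For ThTC minus GFP-TC, the SE was 0.97 for Scn2b and 0.16 for Kcnh6. Which genes come first by p is therefore a description. Kcnh6 averaged 139 ± 25.2 TPM in ThTC libraries, 201 ± 31.6 TPM in GFP-TC libraries and 194 ± 26.0 TPM in sECM only libraries (SD, n = 3 each). All 3 ThTC libraries lay below all libraries of both other groups. The log2 difference was -0.53 ± 0.16 (SE, limma adjusted p = 0.32) for ThTC minus GFP-TC and -0.48 ± 0.16 (adjusted p = 0.69) for ThTC minus sECM only. With the neuron index as a covariate, the first was -0.52 ± 0.14 (adjusted p = 0.15), and with the replicate number as a block over the 6 libraries, -0.53 ± 0.14 (adjusted p = 0.17). Other alternatives went the other way. Against GFP-TC, the smallest limma adjusted p of any channel gene was 0.52 with median-of-ratios scaling, 0.72 without ThTC 2 and 0.75 without GFP-TC 2. Kcnh2 differed by -0.53 ± 0.20 (SE, limma adjusted p = 0.32) for ThTC minus GFP-TC, with ThTC 3 above the lowest GFP-TC library. Kcnk2 differed by -0.32 ± 0.14 (adjusted p = 0.33), with no overlap between ThTC and GFP-TC, and Kcnn4 by -0.24 ± 0.10 (adjusted p = 0.69) for ThTC minus sECM only.

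Kcnj14, an inward rectifier, had 0.94, 0.80 and 1.06 TPM in ThTC libraries, 1.56, 1.35 and 1.68 TPM in GFP-TC libraries, and 0.93, 0.57 and 1.39 TPM in sECM only libraries. The highest ThTC value lay under the lowest GFP-TC value. In all, 3 of 88 channel genes were lower in ThTC than in GFP-TC with no overlap, against 16.9% of all tested genes. Against sECM only, 1 channel gene lay lower in ThTC with no overlap, against 12.1% of all tested genes. For GFP-TC against sECM only, 2 lay higher with no overlap, Kcnh2 and Kcnk2, against 3.15% of all tested genes. The smallest p of that comparison belonged to Kcnk2, with a log2 difference of 0.31 ± 0.14 (SE), to Kcnj14 with 0.38 ± 0.22 and to Cacnb3 with 0.46 ± 0.36, all at a limma adjusted p of 0.997.

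**Figure D5:**
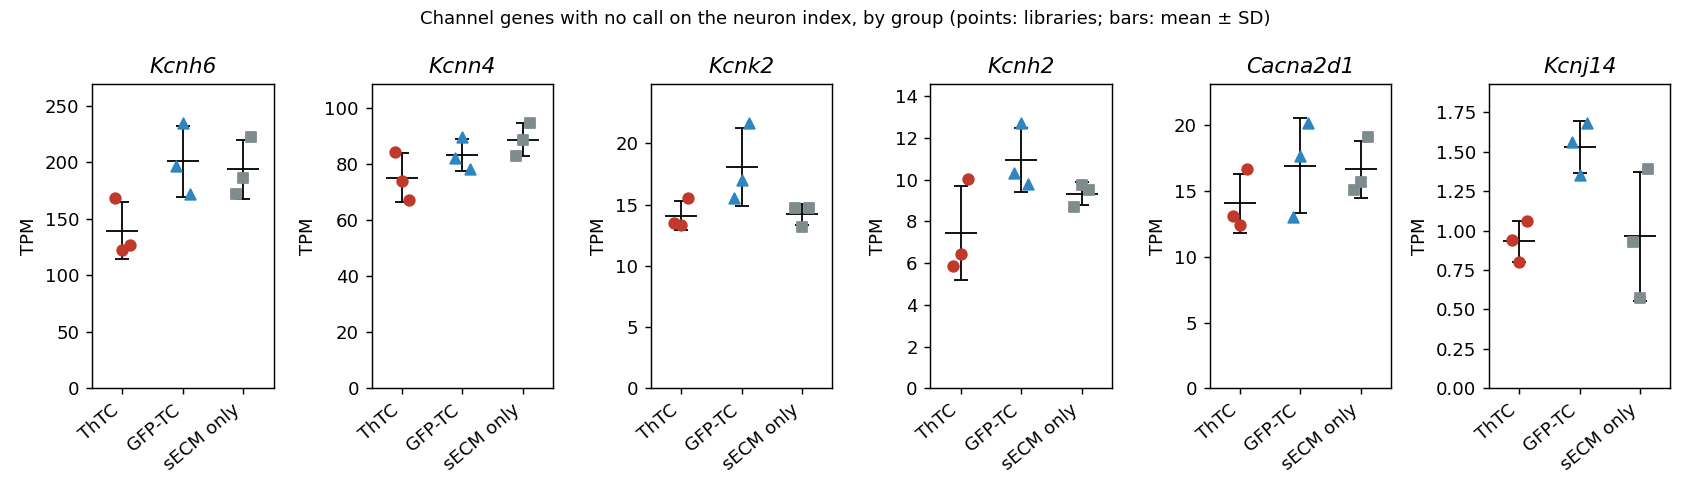
TPM of 6 channel genes without a call on the neuron index, with 1 point per library and bars for the mean ± SD of each group (n = 3). The ThTC points of Kcnh6 lie at 122 to 168 TPM, below the 172 to 235 TPM of the GFP-TC and sECM only points, and no difference shown passed the adjusted test.

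Channel genes that lie side by side in the genome differed in level in some cases and were close in others. On chromosome 2, the sodium channel cluster held Scn2a at 3.92 TPM on average (chr2:65620764-65767447) and Scn1a at 1.44 TPM (chr2:66270781-66440837), while Scn3a, Scn9a and Scn7a averaged 0.56, 0.126 and 0.070 TPM. Scn3a is mainly an embryonic channel, and Scn9a belongs to pain-sensing neurons. On chromosome 3, Kcna2 and Kcna3 averaged 2.86 and 2.79 TPM with slopes of 0.77 and 0.32, and Kcna10, in the same cluster, was listed at 0 in all 9 libraries. On chromosome 6, Kcna1 and Kcna6 averaged 3.70 and 5.22 TPM, and Kcna5, known from smooth muscle and macrophages, 0.797 TPM. These levels are means over all 9 libraries in TPM, which is corrected for length.

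The 46 genes below the filter were not tested with the filter on. Of these, 30 did not reach 1 TPM in any library, 4 did so in 1 library and 12 in 2 libraries. For 11 of those 12, the 2 libraries were ThTC 3 and GFP-TC 3, and among them was Kcnv1, a modulatory subunit of neuronal Kv2 channels, with up to 4.37 TPM in ThTC 3. Kcnrg, a regulator of potassium channels that carries no pore, reached at most 0.20 TPM. Its span overlaps that of Trim13, at 8.23 TPM.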

How the data were processed

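Libraries were made from 2 ug of total RNA and sequenced on the DNBseq platform, per the labels' protocols. The deposited files held TPM per gene symbol. The submitters' processing notes name HISAT, GRCm38.p6 and mm10 with no tool version. How TPM was computed, the gene models, any filter and the use of strand are not given in the sources used here. These values keep no depth and share a fixed total, so a rise of some genes lowers the rest, and no counting interval was given.

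Genes reaching 1 TPM in 3 or more of 9 libraries were tested on log2(TPM + 1) with limma 3.58.1 in R 4.3.3 (moderated linear model with an intensity trend, two-sided), with Benjamini-Hochberg adjustment over all tested genes at a threshold of 0.05. The models held group and an index, or group alone, with all libraries in one fit. The steps were tested on simulated data. Plots were made with matplotlib 3.10.9 in Python 3.11.15, and gene positions, counted from 1, came from RefSeq on GRCm38.p6, where all 134 symbols matched.

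The members and lists were chosen with earlier results of these data known. The rule for named genes took the most abundant gene of each class, the 8 with the smallest p for a positive neuron slope, up to 8 uncalled genes averaging 5 TPM or more, up to 5 by p for the leukocyte slope, and the 3 with the smallest p per comparison. Members of the cell type lists, partner genes and further genes named in the text were chosen after their values were seen. Alternatives were another pseudocount, no filter, a mean of 5 TPM or more, median-of-ratios scaling, leaving out libraries, other indices, a replicate block and fewer libraries. Some single genes are counted but not reported here.

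Deviations from the group means correlated at 0.74, 0.12 and 0.87 between same-numbered ThTC and GFP-TC libraries. All were over 0.1, but the labels do not say what a number stands for. The main fits held no pairs, so their estimates, SE and p-values are unpaired. Pairs entered only in the alternatives with a replicate block. For sECM only, the correlations were -0.55, 0.28 and -0.21 against ThTC and -0.53, -0.14 and -0.19 against GFP-TC. The block over the 6 libraries of ThTC and GFP-TC did not hold this group.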

Additional observations from a re-analysis of the deposited data

How the results depend on the processing

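Of 88 tested channel genes, 79 were called with a positive neuron slope, against 25.5% of all tested genes. When 1 library was left out, 82 to 88 channel genes were tested and 68 to 79 were called. The share of all genes tested there was 17.6% to 26.8%. The count of calls was 25 of 30 with a mean of 5 TPM or more (20.3% of all genes tested there), where fewer genes were tested. It was 37 of 77 without both ThTC 3 and GFP-TC 3 (9.3%). Over the 88 genes, it was 67 with the replicate block over 9 libraries (12.5% of all tested genes) and 77 with no group terms (24.1%). With an oligodendrocyte or astrocyte index in place of the neuron index, it was 77 and 78 (23.9% and 25.6%). The leukocyte slope, with 59 calls, was unstable. Its count was 36 of 132 with no filter (9.47% of all genes tested there). It was 20 of 30 with a mean of 5 TPM or more (14.3%) and 3 with median-of-ratios scaling (2.73%). The count was 0 with the replicate block (0.499%), 6 with no group terms (6.78%) and 0 with the neuron index beside it (0.108%). Without both ThTC 3 and GFP-TC 3, it was 35 of 77 (11%). When 1 library was left out, it was 0 to 67, against 0% to 21.1% of all genes tested there. The causes were not tested. At an unadjusted p under 0.05, 37 of 88 had a leukocyte slope under the block (15.0% of all tested genes) and 3 with both indices (7.43%).

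Each comparison between treatments gave 0 channel genes in limma under every alternative run. The pairing of ThTC with GFP-TC changed no call of a channel gene: with the replicate block over those 6 libraries, 0 of 84 channel genes and 10 of 13684 genes were called, 6 channel genes had an unadjusted p under 0.05 against 17.5% of all genes, and the smallest adjusted p of a channel gene was 0.17. Median-of-ratios scaling moved the median log2 difference of all genes for ThTC minus GFP-TC to 0.020, against -0.10 as deposited, and that of the 88 channel genes to 0.10, against 0.0044.

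For named genes, 567 alternative values over 32 results were computed: 526 kept direction and call, 35 lost the call, 5 gained it and 1 changed sign, the Kcnh2 neuron slope, which ran between -0.011 (without ThTC 3) and 0.18 (without GFP-TC 3) when 1 library was left out. TPM keeps no depth, so precision rests on 3 libraries a group.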
